A study of Rattus norvegicus with 48 samples.

Results

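The soleus-enriched genes are the genes whose transcripts set the slow soleus apart from the fast plantaris in rats that were not immobilized. A gene was counted as one where its mean over the 12 control soleus libraries was at least 5 CPM (the count divided by the library total and multiplied by 1e6) and the log2 ratio of soleus to plantaris, with 1 CPM added to both means, was at least 2. The rule found 120 of the 31998 genes in the count table, and all 120 were among the 16960 genes that passed the filter on low counts. Because control libraries chose the genes, the soleus excess in controls is a description and carries no test. By the same choice, a gene that was high by chance in control soleus, or low by chance in control plantaris, was more likely to enter, which favours falls with immobilization in soleus and rises in plantaris.

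The data came from 24 female rats aged 14 months, of generation 19 of lines bred for a low (LRT) or a high (HRT) running response to endurance training, which had all completed a treadmill training block earlier in life. In 6 rats of each line 1 hindlimb was held in a cast for 3 days with the foot plantar-flexed (hindlimb immobilization, HI), and 6 other rats of each line were left uncast (CTRL). Puromycin, which labels newly made protein, was injected shortly before tissue collection, and the study measured this label in HI and control muscle. Plantaris and soleus of every rat were sequenced, which gives 8 groups of 6 and 48 libraries, whose totals ran from 26.8 to 36.4 in units of 1e6 counts, and RNA integrity numbers (RIN) lay between 7.8 and 8.6. As bulk muscle, these libraries cannot tell fewer cells of a type from less RNA per cell.

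The soleus is a postural calf muscle built mostly of slow, oxidative fibres, which use slow isoforms of the contractile and calcium-handling proteins and burn fat and ketones, while the plantaris is mostly fast. The slow programme is known to depend on sustained nerve and load input, read out in part through calcineurin and its transcription factor NFAT, the MEF2 factors and oestrogen-related receptors. When a muscle is cast in a shortened position it loses load and stretch, and the soleus is known to waste early under such unloading.

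Gene symbols were paired with the identifiers for 45 of the 120 genes, and the remaining 75 are counted here without names. The pairs came from the study's lists of genes that changed with HI, so the 45 named genes were selected on these same libraries for having moved. The same selection holds for the paired genes of every gene list below, whose counts are therefore no independent evidence of a direction. For each HI against CTRL comparison the falls of the 45 are given apart from those of the 75. In particular, the gene with the most reads, ENSRNOG00000016983 at 46300 CPM in control soleus, is unnamed, and most familiar slow-fibre genes could not be looked up: 1 of the 13 on a list of slow contractile proteins was paired. The muscle labels were checked on the 5 of 10 fast-fibre genes that were paired, parvalbumin and the fast calcium pump among them, whose summed level was 5100 to 18700 CPM in plantaris libraries and 699 to 2180 CPM in soleus libraries, with no overlap.

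Just inside the threshold stood ENSRNOG00000033844, AABR07003167.1 and ENSRNOG00000001517, with log2 ratios of 2.026, 2.027 and 2.028. Just outside stood Hspb6, a small heat shock protein, at 1.979, and Hsd3b7 and ENSRNOG00000010350, both at 1.978. The library of replicate 1 of HRT control soleus stood apart: without it 4 genes left the set (Ahnak2 and 3 unnamed genes) and 1 joined. One of those 4, ENSRNOG00000048794, was at 287 CPM in that library, at no more than 0.0902 CPM in the other 11 control soleus libraries and at 0 counts in all 24 plantaris libraries, where 3 counts would be 0.0825 to 0.112 CPM.

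Sequence upstream of the start site is shown for 3 genes that fell in soleus of both lines, since the set was picked for a shared pattern of expression. They are Rcan1, which codes for an inhibitor of calcineurin and is itself a known calcineurin target (chr11:45118237-45118486, minus strand), Actc1, the cardiac actin that slow and developing muscle also makes (chr3:121271828-121272077, minus strand), and Dnah5, an axonemal dynein heavy chain (chr2:80710936-80711185, plus strand). Each run is the 250 bases before the annotated start in RefSeq, build GRCr8, 5′ to 3′ along the gene, and capitals mark GGAAAA, the core of an NFAT site, on either strand.
Rcan1: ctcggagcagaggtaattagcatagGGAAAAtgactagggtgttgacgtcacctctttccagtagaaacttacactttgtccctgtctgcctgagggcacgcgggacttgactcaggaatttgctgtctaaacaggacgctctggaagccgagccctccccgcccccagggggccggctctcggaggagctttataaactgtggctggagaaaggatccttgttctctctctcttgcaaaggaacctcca
Actc1: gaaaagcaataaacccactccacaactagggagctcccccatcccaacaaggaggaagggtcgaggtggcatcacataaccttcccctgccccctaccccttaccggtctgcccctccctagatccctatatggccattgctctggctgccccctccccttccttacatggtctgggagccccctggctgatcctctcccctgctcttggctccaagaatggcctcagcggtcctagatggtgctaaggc
Dnah5: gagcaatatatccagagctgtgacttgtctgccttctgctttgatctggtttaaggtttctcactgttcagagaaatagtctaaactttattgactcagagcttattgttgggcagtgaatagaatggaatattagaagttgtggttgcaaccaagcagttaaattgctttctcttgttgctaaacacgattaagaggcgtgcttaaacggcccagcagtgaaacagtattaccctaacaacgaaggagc
Promoter entries were matched for 21 of the 45 named genes, 9 of them among the genes that fell in soleus of both lines. GGAAAA was found, on either strand, in 2 of the 21 and in 21.6% of all 33469 promoter windows, and the 1 match in the 3 windows shown starts 225 bases before the Rcan1 start site. A MEF2-type motif and AAGGTCA, letters bound by oestrogen-related receptors, were in none of the 21 against 3.41% and 3.99% of all windows. CATTCC, the M-CAT letters, was in 3 of the 21 against 12.1%. Both strands were searched for all 4, none but GGAAAA has a match in the windows shown, and with so few windows the counts are a description only.

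The first comparison was HI against CTRL in soleus, the muscle in which the genes are high. With HI many of them fell, in both lines among them the calcium regulators Rcan1 and Rrad, the dynein Dnah5, the actin Actc1, Fhl2 of the Z-disc, the receptor Esrrg and the junction protein Colq. In LRT soleus 35 of the 120 genes fell and 1 rose (edgeR quasi-likelihood test, adjusted p under 0.05 over all genes tested), where 6.58% of all genes tested fell and 7.36% rose. In HRT soleus 41 fell and 1 rose, where 8.23% of all genes fell and 7.95% rose. The median log2 fold change of the 120 was -0.60 in LRT and -0.66 in HRT, while the median over all genes tested was 0.01 in both. The estimate was below 0 for 107 of the 120 in LRT and for 106 in HRT. With an absolute log2 fold change over 1 also required, 25 fell in LRT soleus and 28 in HRT soleus, where 0.991% and 1.47% of all genes did.

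**Figure D1:**
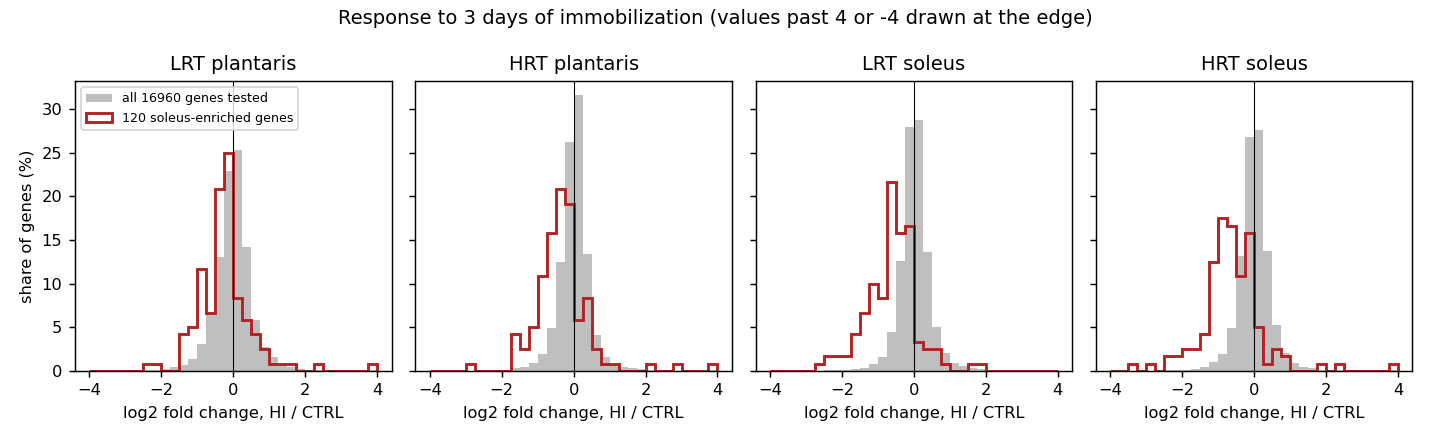
Share of genes (vertical axis, %) by log2 fold change of HI over CTRL (horizontal axis, bins of equal width) for the 120 soleus-enriched genes (red outline) and all 16960 genes tested (grey) in each line and muscle. The red outline lies left of 0 in soleus, with medians of -0.60 and -0.66, and less far left in plantaris, with medians of -0.26 and -0.38.

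Falls were seen among the named and the unnamed genes. Of the 45 named genes 25 fell in LRT soleus and 26 in HRT soleus, and of the 75 unnamed genes 10 and 15 fell. The median of the unnamed genes was -0.34 in LRT soleus and -0.47 in HRT soleus, against -1.12 and -1.11 for the named. When the genes were chosen by the same rule on the control libraries of the other line, so that the controls compared had no part in the choice, 35 of 144 fell in LRT soleus (24.3%) and 38 of 112 in HRT soleus (33.9%), with 1 rise in each. Every HI rat lay below every CTRL rat for 6 of the 120 in LRT soleus and for 13 in HRT soleus, where 2.09% and 2.31% of all genes tested did so, and none of the 120 had every HI rat above every CTRL rat in either line, against 1.79% and 2.25% of all genes.

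Among regulators of calcium signalling, Rcan1 held 458, 739 and 1030 CPM (lowest, median, highest) in LRT control soleus and 42.0, 72.7 and 510 CPM in LRT HI soleus. In HRT the values were 406, 597 and 813 CPM in CTRL and 34.6, 59.9 and 273 CPM in HI. The groups did not overlap in HRT, and in LRT the highest HI rat reached into the control range. Rcan1 fell by 2.22 ± 0.56 on the log2 scale in LRT (estimate ± standard error, adjusted p = 0.0061) and by 2.46 ± 0.57 in HRT (adjusted p = 0.0029).

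Rrad, a small GTPase that restrains L-type calcium channels, showed the largest fall of any named gene in both lines. It went from 74.3, 97.3 and 194 CPM in LRT control soleus to 2.44, 12.1 and 47.0 CPM with HI, and from 77.9, 111 and 162 CPM to 1.67, 6.80 and 35.1 CPM in HRT. No HI rat reached the lowest control in either line. The fall was 2.53 ± 0.65 in LRT (edgeR adjusted p = 0.0073) and 3.35 ± 0.68 in HRT (edgeR adjusted p = 0.00081). Casq2, the slow isoform of the calcium store protein calsequestrin, was at 447 to 502 CPM in LRT control soleus and 104 to 489 CPM with HI, and at 384 to 563 and 127 to 451 CPM in HRT. Its log2 fold changes of -1.01 ± 0.36 and -0.49 ± 0.36 did not pass the threshold (edgeR adjusted p = 0.051 and 0.37). Casq2 and Pln were the 2 genes of the 4 on the slow calcium handling list that could be paired and tested, and Pln, the phospholamban that restrains the calcium pump, is not soleus-enriched. Pln rose by 1.14 in HRT soleus and 0.95 in HRT plantaris (edgeR adjusted p = 0.00076 and 0.0066), and stood at 0.31 and -0.19 in LRT soleus and plantaris (0.39 and 0.56). The ryanodine receptor Ryr3 fell by 1.17 ± 0.35 in LRT (edgeR adjusted p = 0.02) and stood at -0.76 ± 0.35 in HRT (0.13), and Homer2, a scaffold of calcium-signalling complexes, fell by 0.79 ± 0.24 and 1.04 ± 0.24.

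Actc1 was the 1 slow contractile gene on its list that could be named. Its soleus values were 111, 124 and 190 CPM in LRT CTRL and 11.4, 15.1 and 95.8 CPM in LRT HI, and 30.9, 89.3 and 262 CPM in HRT CTRL and 19.6, 32.9 and 37.3 CPM in HRT HI. The LRT groups did not overlap, while in HRT the lowest control rat lay within the HI range. The falls were 2.21 ± 0.39 (edgeR adjusted p = 0.0002) and 1.55 ± 0.39 (edgeR adjusted p = 0.0061). Myh10, a non-muscle myosin heavy chain, went from 417, 577 and 631 CPM to 109, 178 and 417 CPM in LRT and from 541, 611 and 806 CPM to 145, 249 and 531 CPM in HRT, falls of 1.30 ± 0.28 and 1.10 ± 0.29. Ablim1, an actin-binding protein, fell by 1.49 ± 0.33 and 1.66 ± 0.34, both past the threshold.

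Of the 13 genes on the list of Z-disc proteins and small heat shock proteins, 9 were paired and tested, and 3 of these were soleus-enriched. Across the 9, none rose in plantaris, where 3 fell in LRT and 1 fell in HRT. In soleus none rose either, and 5 fell in LRT and 4 in HRT. Fhl2, a LIM-domain protein at the Z-disc, fell in both lines, from 43.0, 54.2 and 77.8 CPM to 10.4, 19.5 and 55.7 CPM in LRT and from 44.7, 62.2 and 67.4 CPM to 5.11, 17.4 and 46.1 CPM in HRT. That is 1.14 ± 0.34 and 1.43 ± 0.35 on the log2 scale, and in each line the top HI rat overlapped the controls. Cryab, the chaperone alpha-B crystallin, fell by 1.19 ± 0.38 in LRT (edgeR adjusted p = 0.03), from 4350, 5740 and 8410 CPM to 883, 1820 and 6360 CPM, and stood at -0.79 ± 0.38 in HRT (0.15).

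Ankrd2 and Mettl21c were spread widely between HI rats. Ankrd2, a stretch-responsive ankyrin-repeat protein, held 910 to 2450 CPM in LRT control soleus, and its HI rats ran from 37.2 through a median of 187 to 2240 CPM. In HRT it held 463 to 1730 CPM in CTRL and 32.6, 416 and 1420 CPM in HI. Mettl21c, a lysine methyltransferase of muscle, ran from 4.45 through 50.2 to 581 CPM in LRT HI soleus against 320 to 781 CPM in CTRL, and from 3.29 through 128 to 698 CPM in HRT HI soleus against 156 to 876 CPM. Neither gene passed the threshold in any of the 4 HI comparisons: the soleus estimates were -1.35 ± 0.77 and -0.88 ± 0.76 for Ankrd2 and -1.66 ± 0.84 and -1.11 ± 0.85 for Mettl21c.

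**Figure D2:**
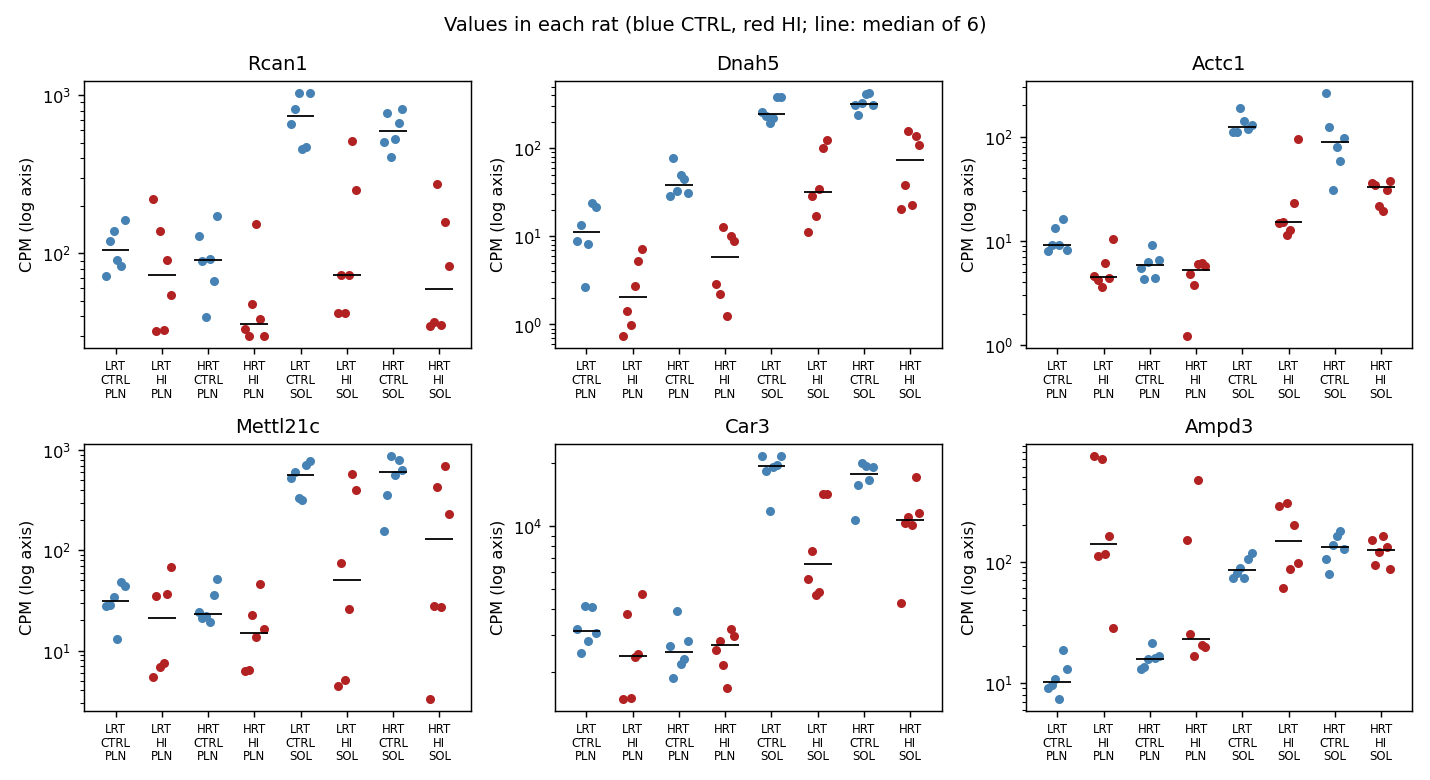
CPM of 6 soleus-enriched genes in every rat (log vertical axis) by group, with CTRL in blue, HI in red and a line at the median of 6. Rcan1 and Dnah5 are lower in most HI soleus libraries, Mettl21c runs from 4.45 to 581 CPM among LRT HI soleus rats, and Ampd3 in plantaris of HI rats runs from 28.6 to 744 CPM in LRT, above every control, and from 16.7 to 469 CPM in HRT, overlapping the controls.

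Of the 18 genes on the list of fat and ketone oxidation, 11 were paired and tested, and 4 fell and 2 rose in LRT soleus and 3 fell and 2 rose in HRT soleus. In plantaris 6 fell and 1 rose in LRT, and 4 fell and 0 rose in HRT. The 2 soleus-enriched ones are Esrrg, an oestrogen-related nuclear receptor of oxidative muscle, and Bdh1, which interconverts the ketone bodies. Esrrg went from 71.1, 81 and 115 CPM to 26.3, 35.6 and 71.3 CPM in LRT and from 79.1, 95.5 and 118 CPM to 30.5, 42.5 and 67.2 CPM in HRT, with no overlap in HRT and, in LRT, 1 HI value just above the lowest control. It fell by 1.07 ± 0.21 and 1.03 ± 0.21 (edgeR adjusted p = 0.00066 and 0.00097). Bdh1 fell by 1.14 ± 0.36 in HRT (edgeR adjusted p = 0.025) and stood at -0.67 ± 0.35 in LRT (0.2).

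Car3, the carbonic anhydrase typical of slow fibres, holds the most reads of the named genes. It was at 11800, 19400 and 21700 CPM in LRT control soleus and at 4660, 6590 and 14300 CPM with HI, a fall of 1.12 ± 0.28 (edgeR adjusted p = 0.0063). In HRT it was at 10700, 17900 and 20100 CPM and 4280, 10700 and 17100 CPM, an estimate of -0.60 ± 0.29 that did not pass (edgeR adjusted p = 0.14). Gpx1, a glutathione peroxidase that clears hydrogen peroxide, fell in both lines, from 404 to 666 CPM in LRT CTRL down to 88.1 to 431 CPM in HI, and from 444 to 614 CPM down to 54.4 to 325 CPM in HRT, where the groups did not overlap.

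Colq, the collagen tail that anchors acetylcholinesterase at the neuromuscular junction, went from 3.96, 11.9 and 16 CPM to 1.15, 2.18 and 7.54 CPM in LRT soleus and from 9.19, 12.3 and 30.8 CPM to 0.896, 3.02 and 5.54 CPM in HRT soleus. The HRT groups did not overlap, while the highest LRT HI value lay within the control range. The falls were 1.72 ± 0.40 and 2.2 ± 0.41 (edgeR adjusted p = 0.0032 and 0.00037). Of the 6 paired genes on the list of denervation and junction genes, 1 fell in LRT soleus and 2 in HRT soleus, Colq in both, and none rose in either. In plantaris 3 of the 6 rose in LRT, Myog by 2.62, Musk by 1.11 and Prima1 by 1.54 (edgeR adjusted p = 4.4e-05, 0.041 and 0.0085), and Prima1 by 2.50 in HRT (0.0007), while Gap43 and Ache fell in both lines and Colq, at -1.0 and -0.87, was not called (0.17 and 0.29). LOC103690086, with no described role here, fell by 2.26 ± 0.50 in LRT and 2.82 ± 0.50 in HRT.

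Slc4a3, an anion exchanger, fell in HRT soleus by 1.17 ± 0.22 (edgeR adjusted p = 0.00031), from 81.7 to 207 CPM in CTRL down to 23.5 to 76.2 CPM with no overlap, and stood at -0.51 ± 0.21 in LRT (0.097). Of the unnamed genes, ENSRNOG00000002863 and ENSRNOG00000008807 had the lowest mean estimate over the 4 HI comparisons. ENSRNOG00000002863 fell by 1.97 ± 0.55 in LRT soleus and 2.17 ± 0.57 in HRT soleus, and ENSRNOG00000008807 by 1.72 ± 0.57 and 2.44 ± 0.57.

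A single named gene rose with HI in soleus of each line, and not the same one. LOC102550391, annotated as similar to a glutathione S-transferase of class alpha, was at 72.2, 126 and 188 CPM in LRT CTRL and at 119, 379 and 694 CPM in LRT HI, a rise of 1.5 ± 0.43 (edgeR adjusted p = 0.016), while in HRT the estimate was 0.27 ± 0.41. LOC100909784, annotated as similar to leiomodin-2, an actin nucleator, was at 17.5, 94.6 and 186 CPM in HRT CTRL and at 41, 273 and 481 CPM in HRT HI, a rise of 1.75 ± 0.51 (edgeR adjusted p = 0.016), while the LRT estimate was -0.65 ± 0.49. The differences between the lines did not pass the threshold for either gene (edgeR adjusted p = 0.5 and 0.23), and the HI and CTRL groups overlapped for both.

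**Figure D3:**
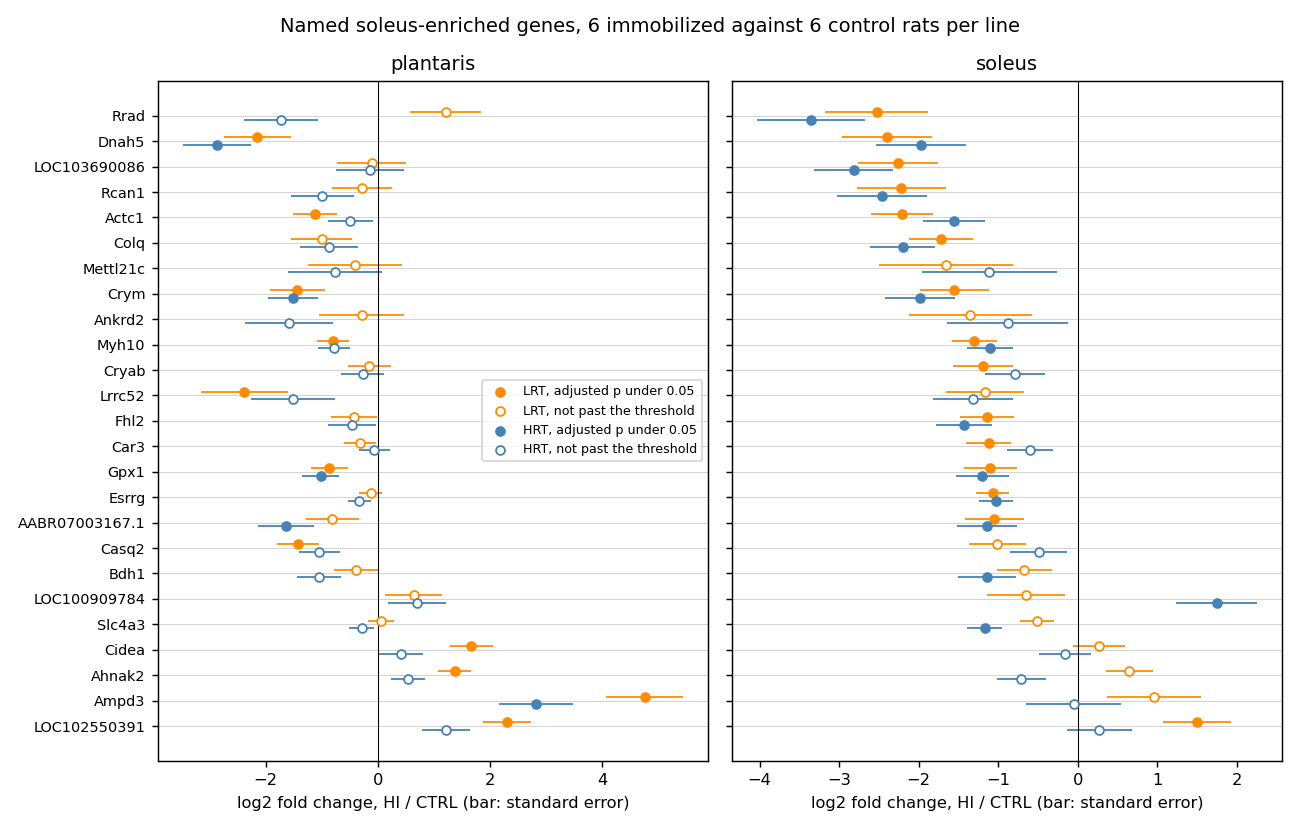
Log2 fold change of HI over CTRL (horizontal axis, bar 1 standard error) in plantaris and soleus for 25 named soleus-enriched genes in LRT (orange) and HRT (blue), filled where the adjusted p was under 0.05. From Rrad, at -2.53 and -3.35 in soleus, down to Bdh1 the soleus points lie left of 0, and in plantaris Ampd3, at 4.76 and 2.82, lies farthest right.

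The fall was not even over the set. The 10 genes with the most reads, from 3360 to 46300 CPM in control soleus, had median log2 fold changes of -0.26 in LRT soleus and -0.34 in HRT soleus, and of these 10 only Car3 and Cryab fell, both in LRT. ENSRNOG00000016983 was at -0.03 in LRT soleus and -0.11 in HRT soleus (edgeR adjusted p = 0.94 and 0.79). The 30 genes next in order had medians of -0.78 and -0.73, and 9 of them fell in each line. The 40 after these, from 25.7 to 137 CPM, had medians of -0.48 and -0.60, with 12 falls in LRT, 14 in HRT and 1 rise in each line. Among the last 40, from 5.27 to 24.8 CPM, 12 fell in LRT and 18 in HRT, with medians of -0.65 and -0.74. CPM is not corrected for gene length, so this order is one of reads, not of transcript number.

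As a share of all counts, the 120 genes took 11.4% to 14.2% in LRT control soleus and 8.55% to 13.1% in LRT HI soleus, and 12.5% to 14.9% and 8.65% to 12.5% in HRT. The 10 genes with the most reads made up 10.4% (median) of the LRT control and 8.96% of the LRT HI soleus counts. The other 110 genes held 1.84% and 1.03% in those groups, and 2.15% and 1.32% in HRT. In plantaris all 120 together took 0.928% to 1.95%.

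HI rats of the same group differed widely. In LRT soleus, replicates 1 to 4 had 86, 67, 86 and 78 of the 120 genes below the lowest control rat, whereas replicates 5 and 6 had 36 and 20. The median difference of these rats from the control median was -1.19, -0.58, -1.05, -0.86, -0.18 and -0.06 on the log2(CPM + 1) scale, in order of replicate number. In HRT soleus the 6 rats had 91, 69, 29, 85, 41 and 43 genes below the lowest control, with median differences of -1.29, -0.77, -0.21, -1.12, -0.30 and -0.53. Of all genes tested, 13.3% to 26.6% lay below the lowest control in these 12 rats. In HRT plantaris the rats had 81, 67, 28, 57, 22 and 58 of the 120 below the lowest control, where 21.9% to 30.5% of all genes lay there, and in LRT plantaris 42, 32, 38, 25, 19 and 5, where 19.9% to 29.9% did. Replicate 3 of LRT control plantaris held the lowest share of counts in the 120 genes of its group, 0.928% (next 1.18%). It was at 814 CPM for ENSRNOG00000016983 (next 2820), though highest of its group for Cryab and Car3 (1890 and 4130 CPM). Where this library is the lowest control, it lowers the LRT plantaris counts, so they do not compare directly with those of HRT. RIN of the 12 HI soleus libraries was 7.8 to 8.2, against 7.9 to 8.4 in control soleus, and RIN was a term of the fit.

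**Figure D4:**
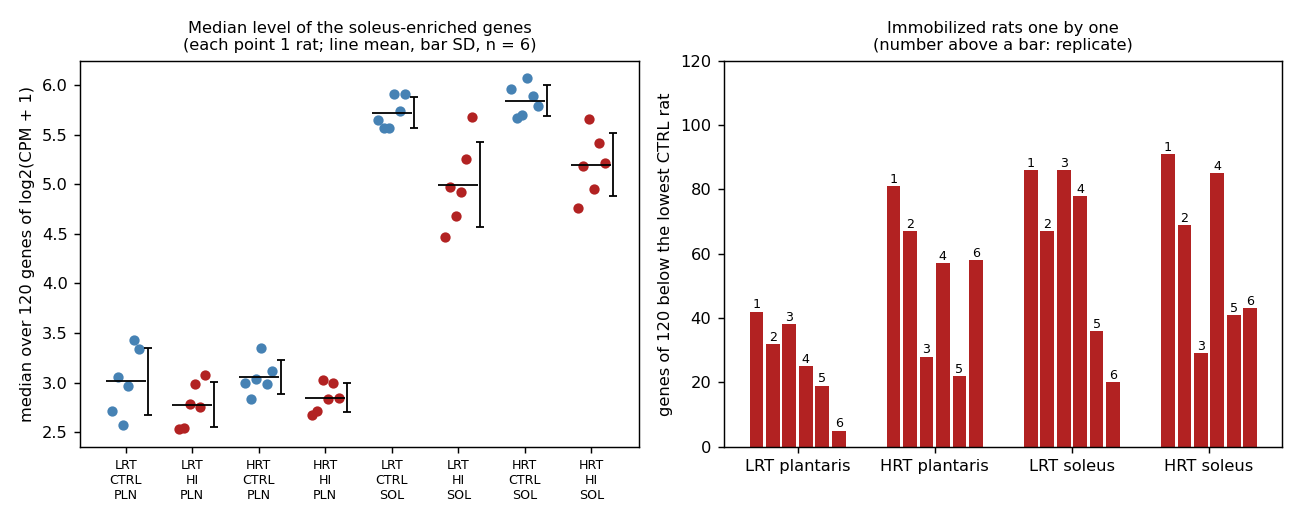
Left, the median over the 120 genes of log2(CPM + 1) in every library (vertical axis) by group, with the mean and the SD of 6 rats. Right, the number of the 120 genes below the lowest CTRL rat (vertical axis) in each HI rat, numbered by replicate; in LRT soleus it runs from 20 to 86 and in HRT soleus from 29 to 91.

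The counts of falls moved with the rats included. In LRT soleus 18 genes fell without the HI rats numbered 3 (3.38% of all genes did), 18 without the control rats numbered 6 (4.04%), 23 without the HI rats numbered 1 (4.29%), and 50 without the HI rats numbered 6 (8.21%), where each number leaves out both muscles of that rat number in both lines. With each muscle fitted alone 20 genes fell in LRT soleus, where 4.03% of all genes did, and with limma-voom 49 fell, where 7.36% did. The share of all genes called lower moved in the same direction as the count of the 120.

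Markers of other cells and of fast fibres were compared in the same libraries. Of the 5 fast-fibre genes 1 rose in LRT soleus, Pvalb by 3.23 (edgeR adjusted p = 0.0002), and none was called in HRT soleus. The Pvalb mean went from 1.5 to 14.2 CPM in LRT soleus, against 2390 CPM in LRT control plantaris. The sum of the 5 genes was 954 to 2180 CPM in LRT control soleus and 960 to 1920 CPM in LRT HI soleus. In HRT soleus 6 of 7 red blood cell genes rose with HI, their sum going from 203 to 651 CPM in CTRL to 262 to 10700 CPM in HI. Replicate 5 alone held the 10700 CPM, and the next highest HI library held 1610 CPM. All 6 paired immune genes rose in HRT soleus, from a sum of 2.56 to 8.08 CPM to one of 8.69 to 34.2 CPM. In LRT soleus none of the 7 red blood cell genes and 1 of the 6 immune genes (Ccl7) rose. Of 10 tendon and connective tissue genes, 5 fell in HRT soleus and 2 in LRT soleus, and none rose. No red blood cell or immune gene of these lists was called lower in soleus of either line. In plantaris 9 of the 10 tendon and connective tissue genes fell in LRT and 6 in HRT, and 3 of the 5 fast-fibre genes fell in LRT, Mylpf by 1.22, Casq1 by 1.49 and Pfkfb1 by 1.51 (edgeR adjusted p = 0.017, 6.6e-06 and 0.0029), and none in HRT. Of the red blood cell genes 1 fell in LRT plantaris, and 1 immune gene rose in plantaris of each line. The part of these markers in the falls of the soleus-enriched genes, in either muscle, was not tested.

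The response of the lines was then set side by side. Of the 120 genes 30 fell in soleus of both lines, where 3.32% of all genes tested did so, and they make up 30 of the 35 LRT falls and 30 of the 41 HRT falls. They include Rcan1, Rrad, Dnah5, Actc1, Myh10, Gpx1, Ablim1, Fhl2, Esrrg, Colq and Crym among 21 named genes. A further 5 passed in LRT alone (Car3, Cryab, Fgf1, Ryr3 and 1 unnamed gene), or 4.17% against 3.26% of all genes tested, and 11 in HRT alone, or 9.17% against 4.91%, among them Bdh1, Slc4a3, Crb1, Fbxl2 and Mcidas. The rats of the lines do not overlap, and the estimates correlated across the 120 genes with r = 0.69 and rho = 0.75, a description across genes that are not independent.

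The test of the difference between the line responses found none among the 120 genes in either muscle. In soleus 0 of 120 passed (edgeR, 0.0295% of all genes tested did), with 6 at an unadjusted p under 0.05 (9.67% of all genes), and DESeq2 and limma-voom also gave 0. In plantaris 0 passed, as for all genes tested (0.0%), with 6 at an unadjusted p under 0.05 (6.25% of all genes) and again 0 by DESeq2 and by limma-voom. The smallest p values in soleus among named genes were those of LOC100909784 (LRT minus HRT response -2.40 ± 0.70, edgeR adjusted p = 0.23), Ahnak2 (1.36 ± 0.42, 0.25) and Slc4a3 (0.66 ± 0.29, 0.46). In plantaris they were those of Rrad (2.94 ± 0.91, 0.75), Cidea (1.26 ± 0.54, 0.77) and LOC100910336 (-8.93 ± 3.64, 0.77). The LOC100910336 value rests on few libraries. In plantaris 1 LRT control library held all 875 counts of its group and 1 LRT HI library 659 of 662, and HRT control held 1 count.

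**Figure D5:**
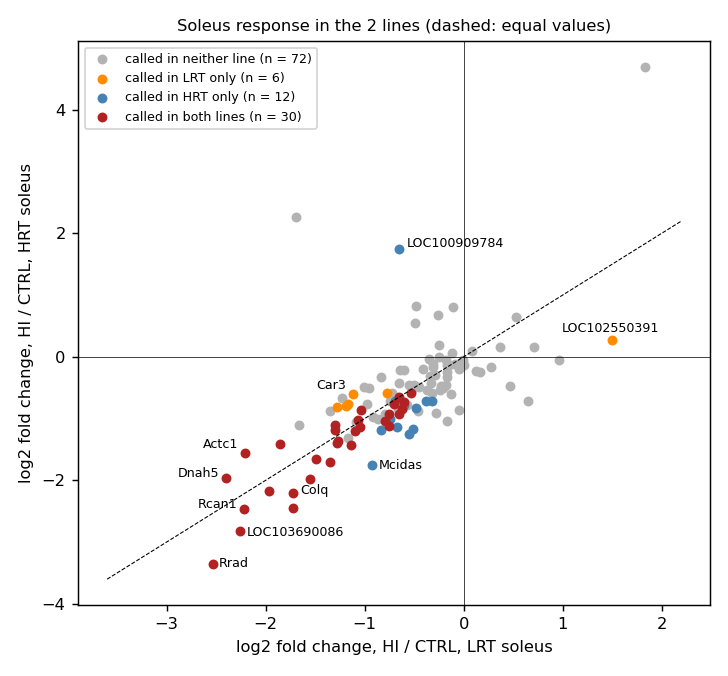
Log2 fold change of HI over CTRL in LRT soleus (horizontal axis) and HRT soleus (vertical axis) for the 120 genes, coloured by the line in which the adjusted p was under 0.05, with the dashed line at equal values. Most called genes lie in the lower left, down to Rrad at -2.53 and -3.35, and LOC100909784 and LOC102550391 are the called genes with a rise.

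In CTRL rats no line difference passed for these genes. In soleus 0 of the 120 passed (edgeR, 1.45% of all genes tested did) and in plantaris 0 (0.525%), with 14 at an unadjusted p under 0.05 in each muscle (15% of all genes in soleus and 10.7% in plantaris). DESeq2 gave 1 in each muscle, and limma-voom gave 2 in soleus and 0 in plantaris. No share of all genes is given for these 2 tools, so their counts are a description only. Crym, a thyroid hormone-binding protein, came near the threshold among the named genes, at 6.72 to 11.8 CPM in LRT and 13.6 to 44.0 CPM in HRT control soleus, without overlap (log2 difference -1.47 ± 0.42, edgeR adjusted p = 0.062).

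In plantaris, where the genes are low, the share of genes called lower (edgeR, adjusted p under 0.05) was near the background in LRT and below it in HRT. In both lines it moved to either side of the background with the rats left out and with the tool. In LRT plantaris 18 of the 120 fell and 7 rose, where 13.6% of all genes tested fell and 15.1% rose. In HRT plantaris 4 fell and 1 rose, where 5.85% of all genes fell and 5.11% rose. Of the 45 named genes, picked for having moved, 13 fell in LRT plantaris and 4 in HRT plantaris. Of the 75 unnamed genes 5 and 0 fell, shares below the background in both lines. The median log2 fold changes were -0.26 and -0.38, with 90 and 95 of the 120 below 0, while the medians over all genes were 0.01 and 0.02. With an absolute log2 fold change over 1, 10 fell in LRT and 4 in HRT, where 2.44% and 0.991% of all genes did. Every HI rat lay below every CTRL rat for 2 genes in LRT and 8 in HRT (5.74% and 5.4% of all genes), and above for 2 in LRT and 0 in HRT (4.69% and 3.27%). For genes low in replicate 3 of LRT control plantaris, described above, a full separation below the controls was harder to reach. With library totals in place of TMM scaling the median of all genes rose to 0.25 and 0.17, and that of the 120 became -0.02 and -0.23, with 12 rises and 10 falls among the 120 in LRT, where 35.0% of all genes rose and 6.33% fell. The HRT plantaris falls numbered 17 of 120 with DESeq2 (14.2%, against 7.0% of all genes), 15 of the 116 tested with each muscle fitted alone (12.9%, against 6.56%) and 8 of 120 with limma-voom (6.67%, against 6.18%). In LRT plantaris 20 fell with DESeq2 (16.7%, against 14.2%) and 15 with limma-voom (12.5%, against 14.2%). The LRT plantaris falls went from 18 to 7, 9 and 11 without the control rats numbered 5, 6 and 2 (5.83%, 7.5% and 9.17%, against 12.3%, 11.8% and 12.6% of all genes), and to 8, 10 and 11 without the HI rats numbered 3, 1 and 2 (6.67%, 8.33% and 9.17%, against 10.3%, 9.68% and 13.3%), all below the background. They went to 26 without the control rats numbered 3 (21.7%, against 13.2%). Without the HI rats numbered 6 and 5 they went to 22 and 21 (18.3% and 17.5%, against 15.8% and 14.5%), so these 3 counts lay above the background. The HRT plantaris falls went from 4 to 18 and 11 without the HI rats numbered 5 and 3 (6.71% and 6.7% of all genes fell then), to 1 without the HI rats numbered 4 or the control rats numbered 6 (2.51% and 3.2%), and to 2 without the HI rats numbered 2 or the control rats numbered 1 or 5 (4.65%, 5.54% and 4.2%). Without replicate 1 of HRT control soleus, which enters the shared fit, 12 fell in HRT plantaris, where 7.23% of all genes did.

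Dnah5, Crym and Gpx1 fell in all 4 HI comparisons, 2.5% of the 120 against 1.04% of all genes tested. Dnah5 was at 2.63, 11.1 and 24.1 CPM in LRT control plantaris and at 0.736, 2.08 and 7.27 CPM with HI, and at 28.5, 38.5 and 76.6 CPM and 1.24, 5.88 and 12.9 CPM in HRT. Its falls were 2.15 ± 0.60 and 2.87 ± 0.60 in plantaris (edgeR adjusted p = 0.0062 and 0.0024) and 2.40 ± 0.57 and 1.97 ± 0.57 in soleus (0.0038 and 0.015). In soleus it went from 191 to 384 CPM to 11.1 to 123 CPM in LRT and from 240 to 420 CPM to 20.3 to 158 CPM in HRT, with no overlap in either line, and in plantaris the groups overlapped in LRT only. Crym fell by 1.44 ± 0.49 and 1.51 ± 0.45 in plantaris and 1.55 ± 0.43 and 1.98 ± 0.44 in soleus, and Gpx1 by 0.87 ± 0.33 and 1.02 ± 0.33 and by 1.10 ± 0.33 and 1.20 ± 0.33.

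Casq2 fell in LRT plantaris by 1.42 ± 0.37 (edgeR adjusted p = 0.0035), from 23.7, 57.3 and 71.6 CPM to 7.33, 18.4 and 47.4 CPM, and stood at -1.04 ± 0.36 in HRT (0.055). Actc1 fell there by 1.12 ± 0.40 in LRT, and Myh10 by 0.80 ± 0.28. Lrrc52, a leucine-rich repeat protein, had the lowest LRT plantaris estimate of the named genes, -2.38 ± 0.77 (edgeR adjusted p = 0.017), and rests on few reads, 8 to 22 counts in CTRL libraries and 0 to 10 in HI libraries. AABR07003167.1 fell in HRT plantaris by 1.64 ± 0.50, on 16 to 34 counts in CTRL and 3 to 18 in HI libraries. Rcan1 and Rrad did not pass in plantaris: Rcan1 was at -0.28 ± 0.53 and -0.99 ± 0.56, and Rrad at 1.21 ± 0.63 in LRT and -1.73 ± 0.66 in HRT.

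Ampd3, the AMP deaminase isoform that erythrocytes and other tissues use, rose in plantaris of both lines. It went from 7.37, 10.2 and 18.5 CPM to 28.6, 139 and 744 CPM in LRT, where every HI rat lay above every control, and from 13.1, 15.9 and 21.5 CPM to 16.7, 23.1 and 469 CPM in HRT, where the groups overlapped. The rises were 4.76 ± 0.69 (edgeR adjusted p = 5.2e-06) and 2.82 ± 0.66 (0.0057), and without the HI rats numbered 4 the HRT value was 1.53 (0.088). In soleus Ampd3 stood at 0.96 ± 0.59 and -0.05 ± 0.60. In HI rats its median was 149 CPM in soleus and 139 CPM in plantaris in LRT, and 125 and 23.1 CPM in HRT.

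Further rises were seen in LRT plantaris. LOC102550391 went from 18.9, 34.3 and 51.0 CPM to 39.5, 112 and 406 CPM (2.30 ± 0.43, edgeR adjusted p = 0.00013). Ahnak2, a large scaffold protein of muscle membranes, went from 19.1, 31.3 and 43.2 CPM to 39.5, 65.0 and 165 CPM (1.37 ± 0.30, 0.00075), and its place in the set depends on replicate 1 of HRT control soleus. Cidea, a lipid droplet protein of fat cells, went from 0.771, 0.990 and 2.08 CPM to 1.19, 2.32 and 8.61 CPM (1.67 ± 0.38, 0.00091). Of the other 3 paired adipocyte genes, Thrsp rose and Fasn and Scd fell in LRT plantaris, and the part of fat tissue in the Cidea values was not tested. In HRT plantaris these 3 soleus-enriched genes stood at 1.21 ± 0.43, 0.54 ± 0.30 and 0.41 ± 0.39, none past the threshold. Of the unnamed genes, ENSRNOG00000048794 and ENSRNOG00000008169 had the highest mean estimate over the 4 HI comparisons. ENSRNOG00000048794 held 0 to 2546 counts in HRT HI soleus, with a median of 819.5 and 1 library at 0. In HRT control soleus 1 library held 9224 of its 9225 counts, so the control side of its HRT estimate rests on that library. ENSRNOG00000008169 stood between 0.15 and 0.83 and passed in no comparison.

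Read together by gene, 46 of the 120 fell in soleus of at least 1 line (38.3%, against 11.5% of all genes tested), and 19 fell in plantaris of at least 1 line (15.8%, against 14.6%). Of the 46, 36 fell in neither plantaris comparison (30% of the 120, against 6.96% of all genes tested), Rcan1, Rrad, Car3, Cryab, Fhl2, Esrrg and Colq among them. Among all genes tested, 1181 of the 1949 that fell in soleus of at least 1 line also fell in neither plantaris comparison. In all, 57 of the 120 were called in none of the 4 comparisons (47.5%, against 55.0% of all genes tested).

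The last comparison was soleus against plantaris among the HI libraries, which had no part in choosing the genes. In HI rats 110 of the 120 were higher in soleus than in plantaris in LRT and 116 in HRT (edgeR adjusted p under 0.05), where 14.1% and 17.2% of all genes tested were, and 0 were lower, against 15.8% and 17.0% of all genes. The median log2 difference was 2.68 in LRT and 2.65 in HRT. On the scale of the rule, the median log2 ratio of soleus to plantaris was 2.65 in LRT CTRL and 2.24 in LRT HI, and 2.74 in HRT CTRL and 2.26 in HRT HI. A ratio of at least 2 was reached by 108 genes in LRT CTRL and 71 in LRT HI, and by 116 and 74 in HRT. Control libraries chose the genes, so their higher ratio carries no test.

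The named genes not called higher in soleus of HI rats of both lines were Rcan1, Rrad and Ampd3. Rcan1 stood at 1.00 ± 0.56 in LRT and 1.23 ± 0.62 in HRT (edgeR adjusted p = 0.19 and 0.12), Rrad at -0.20 ± 0.65 and 1.11 ± 0.69 (0.85 and 0.22), and Ampd3 at -0.77 ± 0.65 and 0.19 ± 0.74 (0.4 and 0.87). LOC100910336, LOC102550391 and LOC103690086 were not called in LRT alone. Genes with a large excess that persisted include Fhl2 at 4.35 ± 0.42 and 4.05 ± 0.43, Casq2 at 3.66 ± 0.43 and 3.77 ± 0.43, and Slc4a3 at 3.38 ± 0.26 and 3.31 ± 0.25.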

How the data were processed

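RNA of plantaris and soleus of 24 rats was sequenced by the authors, who quantified transcripts with Salmon (0.9.1) against the Rnor_6.0 transcriptome and deposited estimated counts per gene, scaled by length and library size; 66% of the values were not whole. The deposited estimated counts were rounded here. The kit named in the labels and that in the methods differ on strandedness, so overlapping antisense genes may not be told apart. Members and gene lists were chosen with earlier results of these data known. Symbols came from identifier pairs in the study's lists of changed genes.

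Genes were filtered by expression (filterByExpr), scaled by TMM and tested with edgeR's quasi-likelihood test (4.0.16, R 4.3.3) on all 48 libraries with 8 groups and RIN, with Benjamini-Hochberg adjustment over the 16960 genes tested and a threshold of 0.05. Each standard error is the estimate divided by the square root of F. The rule used CPM of library totals, and the CPM printed by rat use TMM-scaled totals instead. The fit was tested on simulated data. Named genes were those on a gene list, the 4 largest rises and falls per HI comparison, the 6 with the most reads, the 3 smallest p values per line difference, and 2 unnamed genes each way. Alternatives used DESeq2 (1.42.0), limma-voom (3.58.1), other scalings, filters, covariates and memberships. Replicate libraries all differed beyond counting error. The replicate numbers of HI and CTRL are of separate rats. Promoter windows were RefSeq's, build GRCr8. Depth was 26.8 to 36.4 (in 1e6 counts) per library.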

Additional observations from a re-analysis of the deposited data

Results flagged for a closer look

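In each of the 8 groups the 6 rats were searched for a highest or lowest value that stood far from the others (Dixon's test on log2(CPM + 1)), over 240 sets of 1 gene in 1 group. The 18 sets below met the criterion, where chance alone gives about 1 in 20. Of the 18, 3 were for replicate 1 of HRT control soleus: Ahnak2 at 417 CPM (next 144), Colq at 30.8 CPM (next 13.3) and ENSRNOG00000048794 at 287 CPM (next 0.0317). ENSRNOG00000048794 also had 1 library with reads in LRT control soleus (0.0902 CPM) and in LRT HI soleus (0.0924 CPM), 3 counts each, with the others at 0. With 5 libraries at 0 any read meets the criterion, so these are not read as outliers.

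For LOC100910336 in plantaris, replicate 6 of LRT control held 32.6 CPM with the other 5 at 0, replicate 3 of LRT HI held 22.1 CPM (next 0.089), and replicate 5 of HRT control held 0.0349 CPM, which is 1 count and not read as an outlier, with the others at 0. In HRT HI soleus its replicate 6 was low, at 23.3 CPM (next 63.4).

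In HRT HI plantaris, replicate 1 was low for Actc1 (1.22 CPM, next 3.78) and Fhl2 (0.928 CPM, next 1.47) and high for Slc4a3 (6.85 CPM, next 5.50), and replicate 4 was high for Rcan1 (154 CPM, next 47.9). In LRT, replicate 6 of HI soleus was high for Actc1 (95.8 CPM, next 23.3) and replicate 6 of control soleus for ENSRNOG00000008807 (23.2 CPM, next 9.17). Replicate 3 of LRT control was low for Casq2 in plantaris (23.7 CPM, next 47.8) and for Car3 in soleus (11800 CPM, next 18400), and replicate 5 of LRT control plantaris was high for Cidea (2.08 CPM, next 1.03). No difference in response between the lines passed the threshold for a soleus-enriched gene.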

How the results depend on the processing

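The median of the soleus-enriched genes stayed below 0 in all 4 HI comparisons under every alternative run, and the falls in soleus outnumbered the rises under every one. DESeq2 gave 3 rises and 17 falls in HRT plantaris (2.5% and 14.2%, against 6.04% and 7.0% of all genes). It also gave 1 line difference among controls in each muscle. limma-voom gave 8 falls in HRT plantaris (6.67%, against 6.18% of all genes) and 2 rises in HRT soleus (1.67%, against 7.8%). Its soleus falls numbered 49 in LRT and 47 in HRT (40.8% and 39.2%, against 7.36% and 8.56% of all genes). It also gave 2 line differences in control soleus. Library totals gave 12 rises and 10 falls in LRT plantaris, and 4 rises in HRT plantaris (3.33%, against 14.8% of all genes). In LRT and HRT soleus 2 rose each (1.67%, against 15.6% and 9.75%). Library totals also gave 6 line differences in control soleus, with medians of -0.02 and -0.23 in LRT and HRT plantaris. Without RIN there were 2 rises in HRT plantaris and 2 in HRT soleus (1.67% each, against 5.54% and 9.61% of all genes). There were also 4 line differences in control soleus. With at least 10 counts in every library, 97 of the soleus-enriched genes were tested. Of these 2 rose and 2 fell in HRT plantaris (2.06% each, against 7.36% and 6.59% of all genes). Control soleus then held 1 line difference. Each muscle alone gave 15 falls in HRT plantaris (12.9%, against 6.56% of all genes) and 20 falls in LRT soleus (16.7%, against 4.03%). It gave 0 rises in HRT soleus, where 3.65% of all genes rose. The cause was not tested. Counts of line differences in these fits, and below with a block or with rats left out, have no share of all genes beside them. They are a description only.

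Requiring an absolute log2 fold change over 1 left 4 rises and 10 falls in LRT plantaris (2.75% and 2.44% of all genes). At an adjusted p under 0.001 there were 0 falls in either plantaris comparison, 0 rises in HRT plantaris and in either soleus comparison, 4 falls in LRT soleus and 8 in HRT soleus. Of all genes tested 3.81% and 0.283% fell at that threshold in LRT and HRT plantaris and 0.584% and 0.89% in LRT and HRT soleus, and 0.159%, 0.737% and 0.713% rose in HRT plantaris, LRT soleus and HRT soleus. Other choices of the members leave the shares of all genes as given for the 120. A log2 ratio of at least 3 (46 genes) gave 2 rises and 6 falls in LRT plantaris, 1 fall in HRT plantaris, 0 rises and 16 falls in LRT soleus, 18 falls in HRT soleus, and 41 and 44 genes higher in soleus of HI rats. A ratio of at least 1 (537 genes) gave 96 rises and 78 falls in LRT plantaris, 23 and 40 in HRT plantaris, 11 and 134 in LRT soleus, 9 and 178 in HRT soleus, 415 and 446 genes higher in soleus of HI rats, 6 and 13 line differences in control plantaris and soleus, and a median of -0.13 in HRT plantaris. Among the 537 the shares of LRT plantaris rises and HRT plantaris falls lay above those of all genes (15.1% and 5.85%). So did the shares of line differences in control plantaris and soleus (0.525% and 1.45% of all genes). Among the 120 all 4 of these shares lay below. Members chosen on the other line gave 2 rises in HRT plantaris, and those chosen without replicate 1 of HRT control soleus 1 line difference in each control muscle.

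HI and CTRL rats of the same number deviated together in 0 of 24 pairs (median r -0.0167), so the number is no pair there. Plantaris and soleus of the same number correlated above 0.1 in 22 of 24 pairs, and 22 of 24 libraries correlated best with their own number, a hint from the data only. With the replicate number as a block 24 genes fell in HRT plantaris, a share above the 7.28% of all genes that fell. In HRT soleus 2 rose (1.67%, against 8.42% of all genes). Controls then gave 1 and 2 line differences in plantaris and soleus. With the rat as a block 110 and 116 genes were higher in soleus of HI rats, as without it.

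Each number was left out in turn, in HI or in CTRL, and so was replicate 1 of HRT control soleus (chosen after seeing the data). This gave 5 to 9 rises and 7 to 26 falls in LRT plantaris, and 0 to 3 and 1 to 18 in HRT plantaris. In soleus it gave 0 to 2 and 18 to 50 in LRT, and 0 to 2 and 31 to 49 in HRT. Every share of rises lay below that of all genes in the same fit, and every share of soleus falls above it. The plantaris falls lay on either side: 7 and 26 in LRT (5.83% and 21.7%, against 12.3% and 13.2% of all genes). In HRT plantaris 1 fall (0.833%) stood against 2.51% or 3.2% of all genes, and 18 falls against 6.71%. The same fits gave 0 to 1 line differences in the soleus response and 0 to 3 in control soleus. They gave 106 to 112 genes higher in soleus of LRT HI rats and 112 to 117 in HRT. The log2 fold change of LOC100910336, LRT plantaris, turned from -0.26 to 9.75 (edgeR adjusted p = 0.04) without the control rats numbered 6 and to -7.79 (0.014) without the HI rats numbered 3, where 1 plantaris library held nearly all reads of each group. Over the named genes, 2401 refitted values kept their side of the threshold, 125 lost it and 73 gained it. Depth limits the plantaris values of the genes with few reads there, such as Lrrc52.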
